A study of Rattus norvegicus with 36 samples.

Results

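The genes described here are markers of the endothelium of the liver sinusoid: Kdr, Flt1, Tek, Tie1, Eng, Stab2, Lyve1, Pecam1 and Cdh5. Their probe sets were taken from the deposited expression table wherever the array's annotation gave one of these symbols and no other. This yielded 12 probe sets of 8 genes, among 31042 probe sets and 14217 genes in all, with 2 probe sets for Kdr, 2 for Lyve1, 3 for Flt1 and 1 for each of the other genes. Cdh5, the cadherin of endothelial junctions, was matched to no probe set and was not analysed here.

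The study exposed male rats, labelled Sprague Dawley and Harlan Sprague Dawley and 7 weeks old at the start, to PBDE47 (2,2',4,4'-tetrabromodiphenyl ether), a brominated flame retardant. Every animal was gavaged on 5 consecutive days with 5 ml/kg of corn oil, which carried no PBDE47 in the vehicle group and 485, 48.5, 4.85, 0.485 and 0.0485 mg/kg in the 5 treated groups. Liver was collected 1 day after the last dose, and RNA from the left lobe was hybridized to Affymetrix rat arrays, 1 array per animal and 6 animals per group. Values are log2 RMA values, in which 1 unit is a doubling of signal. A bulk liver sample mixes all cell types, so fewer endothelial cells and less RNA per endothelial cell cannot be told apart.

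Liver sinusoids are lined by a fenestrated endothelium without an organised basement membrane, which passes plasma to the hepatocytes and clears waste macromolecules from blood by endocytosis. Vascular endothelial growth factor acts on it through the tyrosine kinase receptors KDR (VEGFR2) and FLT1 (VEGFR1), and angiopoietins act through TEK (TIE2), which pairs with TIE1. Stabilin-2 and LYVE1 bind hyaluronan and are typical of sinusoidal rather than large-vessel endothelium, whereas PECAM1, endoglin, TIE1 and both VEGF receptors occur in endothelium of many vessels.

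The labelled tissue and the marker set were checked against the array levels. The 8 measured of 9 hepatocyte markers averaged between 14.02 and 14.08 in the vehicle livers, far above the medians of the arrays, which ran from 5.31 to 5.38. Of the 8 endothelial markers, 7 had a mean above those medians, and Flt1 lay below them with all 3 of its probe sets. Detection was not called per probe set, and folds that involve a level below 5.31 are inexact. Different probe sets bind with different strength, and the levels of different genes are therefore not compared.

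No endothelial marker passed the test from 0.0485 to 48.5 mg/kg, and 3 of 8 (Kdr, Pecam1 and Tie1) fell at 485 mg/kg, by 1.21-fold to 1.35-fold. A probe set is called here when limma's adjusted p, by Benjamini-Hochberg over 31042 probe sets, is below 0.05. Of all probe sets tested, 0% were called at each of the 2 lowest doses, 0.0193% at the next (4.85 mg/kg), 3.39% at 48.5 mg/kg and 15% at the highest, where 7.22% were called lower and 7.81% higher. The median log2 change of the 8 markers was -0.01, 0.05, 0.03 and -0.04 at the 4 lower doses in ascending order. At 485 mg/kg it was -0.18, with 7 of 8 changes negative, while the median over all probe sets was -0.01. At an unadjusted p under 0.05 the 12 marker probe sets gave 0, 1, 0, 0 and 4 in order of dose, where 4.89%, 4.45%, 6.46%, 15.5% and 25.9% of all probe sets did.

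**Figure D1:**
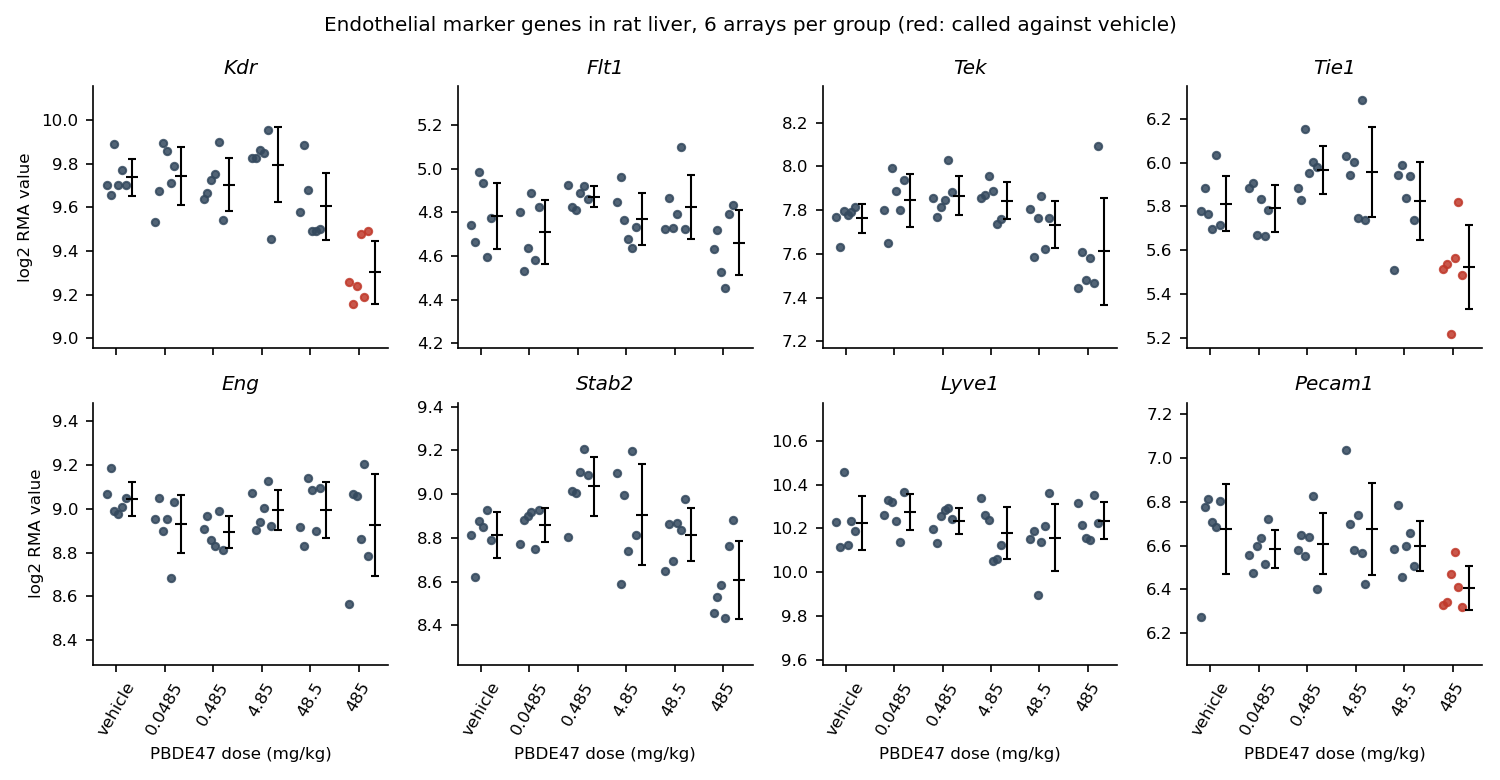
Log2 RMA value (vertical axis, same span of 1.2 units in each panel) of the representative probe set of each of 8 endothelial marker genes against dose group (horizontal axis), with 1 point per animal, 6 animals per group, and mean ± SD beside the points. Red points mark groups called against vehicle: Kdr, Tie1 and Pecam1 at 485 mg/kg, with Kdr means of 9.74 in vehicle and 9.30 at 485 mg/kg.

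To place these responses on the genes themselves, promoter sequence is shown for Kdr and Tie1, which fell at 485 mg/kg, and for Lyve1, whose level stayed within its vehicle range there. RefSeq promoter sequences of the GRCr8 assembly were found for 6 of the 9 genes and were absent from the table for Pecam1, Tek and Cdh5. The windows run from 250 to 71 bases before the annotated start, 5′ to 3′ on the gene's strand, and capitals mark GGAA, the core bound by ETS transcription factors, or its reverse complement TTCC. The Kdr window is chr14:32571813-32571992 on the plus strand, the Tie1 window chr5:137305052-137305231 on the minus strand and the Lyve1 window chr1:174411048-174411227 on the minus strand.
Kdr: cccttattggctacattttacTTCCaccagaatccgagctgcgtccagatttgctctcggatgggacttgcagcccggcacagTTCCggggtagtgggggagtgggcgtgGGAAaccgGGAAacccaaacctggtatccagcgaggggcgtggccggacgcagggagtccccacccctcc
Tie1: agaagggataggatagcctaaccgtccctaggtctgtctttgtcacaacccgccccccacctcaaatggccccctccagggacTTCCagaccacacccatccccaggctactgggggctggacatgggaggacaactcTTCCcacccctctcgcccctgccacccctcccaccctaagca
Lyve1: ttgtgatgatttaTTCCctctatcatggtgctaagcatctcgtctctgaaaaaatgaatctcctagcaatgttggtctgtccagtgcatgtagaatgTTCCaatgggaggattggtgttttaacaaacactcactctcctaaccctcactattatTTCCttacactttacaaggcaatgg
The core occurred 4 times in the Kdr window, 2 times in that of Tie1 and 3 times in that of Lyve1. It is a short and common string, present on either strand in 86.5% of 33469 promoters over the same window, with a mean of 2.1 matches. GGGCGG, the GC box, was found 1 time in the Tie1 window and 0 times in those of Kdr and Lyve1, against 21% of all promoters. AGATAA, which the GATA factors bind, was in none of these windows and in 7.81% of all promoters. TATAAA was likewise in none of them and in 5.22% of all promoters. As the windows end 71 bases before the start, a TATAAA nearer to it would not be seen. The motifs do not overlap each other, and GC content was 62.2% for Kdr, 62.2% for Tie1 and 40.0% for Lyve1. These matches describe the letters and do not separate Kdr and Tie1 from Lyve1. The windows of Stab2, Flt1 and Eng, which were not called at 485 mg/kg either, are not shown.

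Kdr, the main signalling receptor for VEGF-A in endothelium, changed most among the markers when each gene was read by its brightest probe set. The 6 vehicle livers ran from 9.66 to 9.89 with a median of 9.70, and the 6 livers at 485 mg/kg ran from 9.16 to 9.49 with a median of 9.25. All 6 livers of the top dose lay below all 6 vehicle livers, a separation that 3.03% of all probe sets showed in this direction. The change was -0.43 ± 0.08 SE (95% interval -0.60 to -0.27), a 1.35-fold fall with an adjusted p of 9.89e-05. At 48.5 mg/kg the range was 9.49 to 9.88 with a median of 9.54, and 4 of 6 livers lay below the vehicle range. That change of -0.13 ± 0.08 SE did not pass (adjusted p = 0.448). Between both upper doses Kdr fell by 0.30 ± 0.08 SE (adjusted p = 0.0174), a step at which 4.86% of all probe sets were called (2.31% lower and 2.55% higher). That call was lost with both Kdr probe sets averaged (-0.10, adjusted p = 0.44), in a fit of only the 12 arrays (adjusted p = 0.0671) and without replicate 2 at 48.5 mg/kg (0.0733) or at 485 mg/kg (0.0547).

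Vehicle livers averaged 9.74 ± 0.08 (SD, n = 6) for Kdr, and the 3 lower doses, in ascending order, gave 9.74 ± 0.13, 9.70 ± 0.12 and 9.79 ± 0.17. In the order of means from 4.85 mg/kg through 0.0485 mg/kg, vehicle, 0.485 mg/kg and 48.5 mg/kg, neighbouring groups differed by less than their SD, and the step down to 485 mg/kg exceeded it. The liver of replicate 6 at 4.85 mg/kg, at 9.46, lay apart from the 5 others of its group, which ran from 9.82 to 9.95. That array also had the lowest mean correlation with its own group, 0.991, of the 36 arrays, and without it the change at 485 mg/kg kept its call. The second Kdr probe set (1397868_at) had a mean below the array medians, changed by -0.06 ± 0.08 SE at 485 mg/kg (adjusted p = 0.734) and was nearly uncorrelated with the first (1367948_a_at) over the 36 animals (r = -0.04). The size and rank of the Kdr fall rest on the brighter probe set. With both probe sets averaged the change was -0.25 (adjusted p = 0.00241). That is a smaller fall than those of Tie1 (-0.29) and Pecam1 (-0.27), which have 1 probe set each.

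Flt1, the high-affinity VEGF receptor that also acts as a decoy, gave low signal throughout. The brightest probe set (1377113_at) ran from 4.60 to 4.98 with a median of 4.76 in vehicle and from 4.46 to 4.83 with a median of 4.68 at 485 mg/kg. The ranges overlapped, and the change was -0.12 ± 0.08 SE (adjusted p = 0.336). Group means ran from 4.66 at 485 mg/kg to 4.87 at 0.485 mg/kg. The other probe sets changed by 0.03 ± 0.09 and -0.03 ± 0.08 SE at the top dose, and correlations among the 3 were 0.35, -0.04 and -0.05. As all of them lay below the array medians, these changes are not exact.

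Whether the 2 VEGF receptors changed unequally was tested on the difference Flt1 minus Kdr within each array. This difference of log2 values rose by 0.31 at 485 mg/kg relative to vehicle, with an exact two-sided permutation p of 0.0216 and an adjusted p of 0.152 over 15 such tests. It did not pass, and the smallest p that 6 against 6 allows is 0.00216. With each gene's probe sets averaged the rise was 0.21 and passed (exact permutation, adjusted p = 0.0325). All Flt1 probe sets lay below the array medians, where a change is not exact. The difference therefore cannot decide whether the receptors changed unequally.

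TEK and TIE1 are paired receptors of the angiopoietin system, which keeps vessels quiescent. Tie1 (1389324_at) ran from 5.70 to 6.03 with a median of 5.77 in vehicle and from 5.21 to 5.82 with a median of 5.52 at 485 mg/kg. At the top dose 5 of 6 livers lay below the vehicle range, and replicate 5, at 5.82, lay inside it. Tie1 fell by 0.29 ± 0.09 SE (95% interval -0.47 to -0.11), or 1.22-fold, with an adjusted p of 0.0226. Leaving out vehicle replicate 5 (adjusted p = 0.075) or replicate 3 at 485 mg/kg (adjusted p = 0.0895) ended that call. From 48.5 mg/kg the fall was 0.30 ± 0.09 SE (adjusted p = 0.04), a call that ended without replicate 2, 3, 4 or 5 at 48.5 mg/kg or replicate 1, 2, 3 or 6 at 485 mg/kg. Vehicle livers averaged 5.81 ± 0.13 (SD, n = 6), and the doses from 0.0485 to 48.5 mg/kg gave 5.79 ± 0.11, 5.97 ± 0.11, 5.96 ± 0.21 and 5.83 ± 0.18. Ordered by mean (0.485, 4.85 and 48.5 mg/kg, vehicle, 0.0485 mg/kg), neighbours among these 5 groups differed by less than their SD.

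Tek (1393067_at) showed a narrow vehicle range, from 7.63 to 7.82 with a median of 7.78. At 485 mg/kg the livers ran from 7.44 to 8.09 with a median of 7.53. Of these, 5 of 6 lay below every vehicle liver, between 7.44 and 7.61, and replicate 6, at 8.09, lay above every vehicle liver. Over all 6 the change was -0.15 ± 0.08 SE (adjusted p = 0.21), and without replicate 6 at 485 mg/kg it was -0.25 with an adjusted p of 0.00377. Without that liver Tek also passed against 48.5 mg/kg (-0.22, adjusted p = 0.0289). Means at the other doses lay between 7.73 at 48.5 mg/kg and 7.87 at 0.485 mg/kg, with overlapping ranges. Tie1 minus Tek changed by -0.14 at 485 mg/kg (exact permutation p = 0.392), which did not pass.

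Endoglin (Eng, 1372579_at) is a co-receptor for BMP9 and TGF-beta ligands on endothelium. It ran from 8.98 to 9.19 with a median of 9.03 in vehicle and from 8.57 to 9.21 with a median of 8.96 at 485 mg/kg. The top-dose livers spread on both sides of the vehicle range, with an SD of 0.23 against 0.08, and the change of -0.12 ± 0.08 SE did not pass (adjusted p = 0.345). The lowest mean was at 0.485 mg/kg, 8.89 ± 0.07, where 5 of 6 livers lay below the vehicle range. That change of -0.15 ± 0.08 SE had an unadjusted p of 0.0552 and an adjusted p of 1.

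Stab2 and Lyve1 are hyaluronan receptors of sinusoidal endothelium, and Stab2 is also its main clearance receptor. Lyve1 is not confined to sinusoids and also marks lymphatic endothelium. Stab2 (1385160_at) ran from 8.62 to 8.93 with a median of 8.83 in vehicle and from 8.43 to 8.88 with a median of 8.56 at 485 mg/kg. At the top dose 4 of 6 livers lay below the vehicle range, and replicates 5 and 6 lay inside it. The change was -0.21 ± 0.09 SE (adjusted p = 0.107), and without replicate 6 at 485 mg/kg it was -0.26 with an adjusted p of 0.0343. At 0.485 mg/kg Stab2 ran from 8.80 to 9.21 with a median of 9.05, and 5 of 6 livers lay above the vehicle range. That difference of 0.22 ± 0.09 SE had an unadjusted p of 0.0136, the only one of the 12 marker probe sets under 0.05 at that dose, and an adjusted p of 1. Stab2 was at 8.86 ± 0.08 (SD, n = 6), 8.91 ± 0.23 and 8.82 ± 0.12 at 0.0485, 4.85 and 48.5 mg/kg, beside 8.81 ± 0.11 in vehicle.

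Lyve1 (1382732_at) did not pass at any dose. It ran from 10.11 to 10.46 with a median of 10.21 in vehicle and from 10.15 to 10.36 with a median of 10.22 at 485 mg/kg. Every top-dose liver lay inside the vehicle range, and the change was 0.01 ± 0.06 SE (95% interval -0.12 to 0.14, adjusted p = 0.945). The interval leaves out a fall as large as that of Kdr. Group means ran from 10.16 at 48.5 mg/kg to 10.28 at 0.0485 mg/kg, a spread smaller than the largest group SD of 0.15. Its second probe set (1382192_at) followed the first over the 36 animals (r = 0.76) and changed by -0.08 ± 0.08 SE at 485 mg/kg (adjusted p = 0.604). Lyve1 minus Stab2 rose by 0.22 at 485 mg/kg (exact permutation p = 0.0303, adjusted p = 0.152) and fell by 0.21 at 0.485 mg/kg (exact permutation p = 0.00866, adjusted p = 0.13), and neither passed. With the Lyve1 probe sets averaged the fall at 0.485 mg/kg was 0.22 and passed (exact permutation, adjusted p = 0.0487).

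Pecam1 (1371545_at), an adhesion molecule of endothelial cell borders that leukocytes and platelets also carry, ran from 6.27 to 6.81 with a median of 6.74 in vehicle. At 485 mg/kg it ran from 6.32 to 6.57 with a median of 6.38. Vehicle replicate 1, at 6.27, was below every top-dose liver, and the other 5 vehicle livers, from 6.69 to 6.81, were above every one. Pecam1 fell by 0.27 ± 0.09 SE (95% interval -0.44 to -0.10), or 1.21-fold, with an adjusted p of 0.0266. In a fit of only the 12 livers compared the adjusted p was 0.0581. The call also ended without vehicle replicate 2, 3 or 6, at adjusted p values of 0.0608, 0.0681 and 0.066, or without replicate 1, 2 or 6 at 485 mg/kg, at 0.0581, 0.0555 and 0.0573. Without vehicle replicate 1 the change was larger, at -0.35 with an adjusted p of 0.00152. The other doses had means of 6.58 to 6.68 and ranges that overlapped vehicle.

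**Figure D2:**
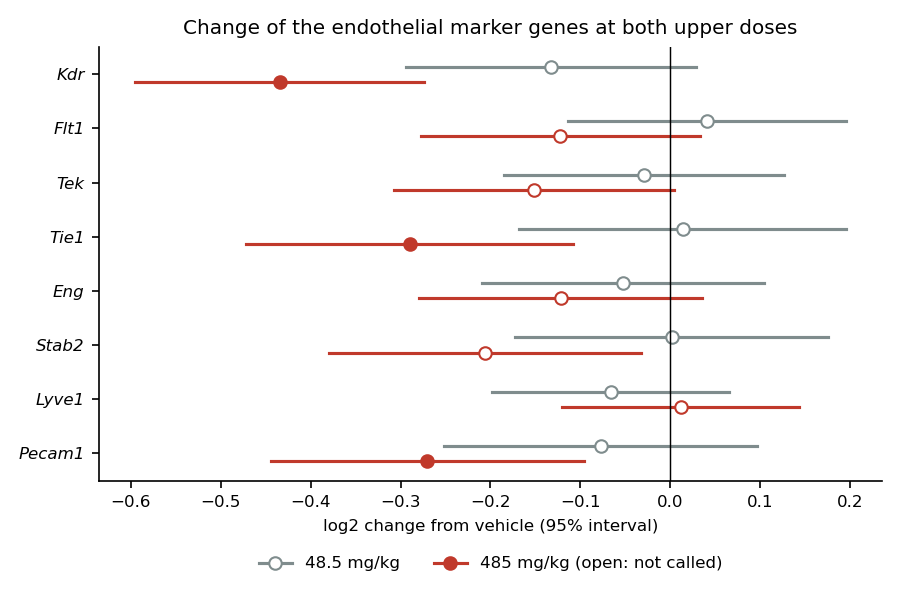
Log2 change from vehicle (horizontal axis) with its 95% interval for 8 endothelial marker genes (vertical axis) at 48.5 mg/kg (grey) and 485 mg/kg (red), from 6 animals per group. Filled points were called at an adjusted p below 0.05: Kdr, Tie1 and Pecam1 at 485 mg/kg, while the Lyve1 interval at 485 mg/kg is centred near 0.01.

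Across all 6 groups, the moderated F test called Kdr (adjusted p = 9.79e-05), Tie1 (0.00349) and Stab2 (0.0105), and 13% of all probe sets. The adjusted p was 0.111 for Tek, 0.178 for Pecam1, 0.338 for Flt1, 0.658 for Eng and 0.756 for Lyve1. Stab2 thus differed among the groups without passing against vehicle at any dose: its highest mean was at 0.485 mg/kg and its lowest at 485 mg/kg. Between 48.5 and 485 mg/kg 2 of 8 markers fell, Kdr and Tie1, and 0 rose, where 2.31% of all probe sets were called lower, and the median change of the markers was -0.18. The count was 1 by the ordinary test and with probe sets averaged, 0 in the 12-array fit, and 0 or 1 without 7 of the 12 livers in turn. All comparisons with vehicle share the same 6 vehicle livers.

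The markers were next compared animal by animal, as the deviation of each liver from its group mean, so that dose itself plays no part. Over 28 pairs of the 8 genes the median Pearson r was 0.13, the range was -0.20 (Tek with Tie1) to 0.43 (Kdr with Pecam1), and 23 were positive. The median r of the markers with 14209 other genes was 0.01, with 52.0% above 0. None of the 28 passed Benjamini-Hochberg adjustment of within-group permutation p values, by Pearson r or by Spearman rho, and 3 had an unadjusted Pearson p under 0.05. Kdr and Pecam1 had r = 0.43 (permutation p = 0.0152, adjusted 0.36) and rho = 0.36 (permutation p = 0.038, adjusted 0.266), positive in 6 of 6 groups, with r = 0.28 without the 2 livers farthest from the Kdr median.

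Lyve1 and Flt1 had r = 0.40 (permutation p = 0.0346, adjusted 0.36) and rho = 0.43 (permutation p = 0.0182, adjusted 0.255), with r = 0.31 without the 2 farthest livers. The hyaluronan receptors Stab2 and Lyve1 had r = 0.35 (permutation p = 0.0495, adjusted 0.36) and rho = 0.44 (permutation p = 0.017, adjusted 0.255), with r = 0.58 without the 2 farthest livers. No common rise and fall of the markers was detected after adjustment, and what r this number of animals could detect was not computed. All points of such a correlation share the arrays and their common normalization.

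**Figure D3:**
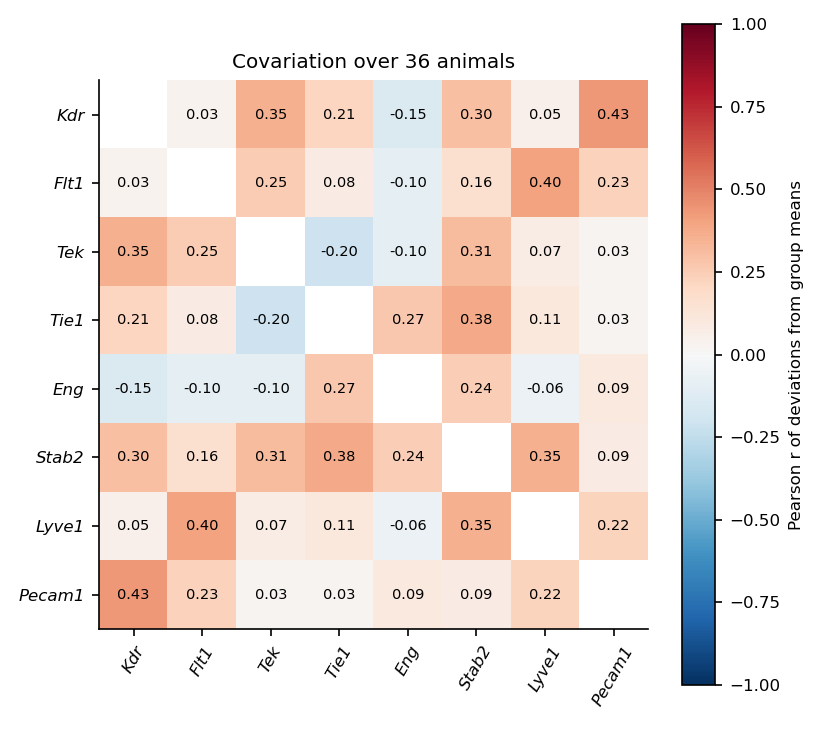
Pearson r between each pair of 8 endothelial marker genes (rows and columns), computed over 36 animals on deviations of log2 RMA values from dose group means, with the colour scale from -1 to 1. Values run from -0.20 for Tek with Tie1 to 0.43 for Kdr with Pecam1, and none passed adjustment over 28 pairs.

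Among 9656 other genes with a mean above the lowest array median, those most like the average of the markers by the same measure over 36 animals were Adam23 (r = 0.77), Trim35 (0.75), Ltbp4 (0.74), Ggta1 (0.74), Cyfip1 (0.70) and Pkd2 (0.70). They were followed by Ptprb (0.69), the endothelial receptor tyrosine phosphatase, Adgrl4 (0.69), an adhesion receptor of endothelium, Erc1 (0.68) and Sec63 (0.67). For single markers the most similar gene was Ccni for Kdr (r = 0.82), Elmo3 for Pecam1 (0.74), Col13a1 for Tek (0.73), Mrc1 for Stab2 (0.70), Gucy1a1 for Tie1 (0.69), Plxnb2 for Eng (0.69), Ppp1cc for Flt1 (0.67) and Glyr1 for Lyve1 (0.66). These are the highest values of a large search and are given as a description without a test.

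A wider list of 42 other endothelial genes, 36 of them measured, was read from the same fit. At 485 mg/kg 7 fell, which is 19.4% of the list beside 7.22% of all probe sets, and 0 rose. Here and in the lists below, a gene is counted by its brightest probe set, while the share covers all probe sets, dim ones included. The median change was -0.13, with 32 of 36 negative. At 48.5 mg/kg 0 of 36 were called, with a median of -0.06. The largest fall was that of Aqp1, a water channel of capillary endothelium, bile ducts and red cells. Its level went from 7.42 ± 0.34 (SD, n = 6) to 6.71 ± 0.32 (-0.71 ± 0.16 SE, adjusted p = 0.00133). Erythroid markers fell at this dose too, and their part in the Aqp1 fall was not tested. Thbd, the thrombin receptor thrombomodulin, fell from 6.74 ± 0.23 to 6.04 ± 0.51 (-0.70 ± 0.17 SE, adjusted p = 0.00278). Mrc1, the mannose receptor of sinusoidal endothelium and macrophages, ran from 8.94 to 9.25 in vehicle and from 8.68 to 8.86 at 485 mg/kg, with no overlap (-0.40 ± 0.06 SE, adjusted p = 4.23e-06). Of all probe sets, 3.03% lay wholly below vehicle in this way.

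Plvap, which forms the diaphragms of caveolae and of some types of fenestrae, fell by 0.28 ± 0.08 SE (adjusted p = 0.0106). Adgrl4 fell by 0.23 ± 0.07 SE (adjusted p = 0.0207), and Dnase1l3, a secreted nuclease, fell by 0.18 ± 0.05 SE (adjusted p = 0.0159), each with 6 of 6 livers below the vehicle range. That separation was seen in 3.03% of all probe sets. The adjusted p rose to 0.0938 for Adgrl4 without replicate 1 at 485 mg/kg and to 0.0547 for Dnase1l3 without replicate 6. Nos3, endothelial nitric oxide synthase, had means below the array medians and a change of -0.31 ± 0.11 SE with an adjusted p of 0.0492, a call lost in 12 of 17 alternatives, among them the omission of vehicle replicate 2, 4, 5 or 6 or of replicate 1, 3, 4 or 6 at 485 mg/kg. Stab1, the relative of Stab2, changed by -0.24 ± 0.10 SE (adjusted p = 0.116), and Vcam1, an inducible leukocyte adhesion molecule, by -0.43 ± 0.16 SE (adjusted p = 0.0674). Icam1, another such adhesion molecule, changed the other way, by 0.30 ± 0.11 SE, and did not pass (adjusted p = 0.063).

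**Figure D4:**
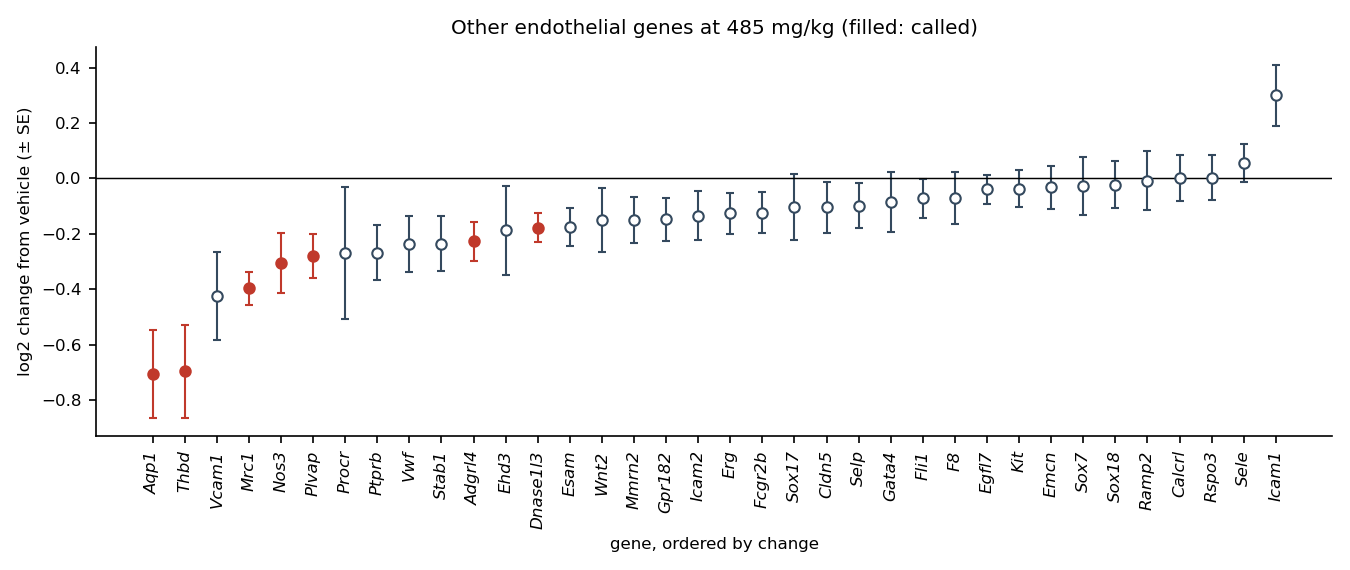
Log2 change from vehicle at 485 mg/kg with its standard error (vertical axis) for 36 other endothelial genes ordered by change (horizontal axis), from 6 animals per group. Filled points mark the 7 genes called lower, from Aqp1 at -0.71 to Dnase1l3 at -0.18, and the highest value is that of Icam1 at 0.30, which was not called.

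In the VEGF pathway list, 1 of 15 measured genes rose and 1 fell at 485 mg/kg, close to the shares of all probe sets called higher (7.81%) and lower (7.22%). Epas1, the hypoxia-inducible factor abundant in endothelium and also expressed in hepatocytes, rose from 10.32 ± 0.07 to 10.77 ± 0.13 (SD, n = 6), with 6 of 6 livers above the vehicle range, as for 4.3% of all probe sets (0.44 ± 0.07 SE, adjusted p = 1.57e-05). Plxnd1, a semaphorin receptor, fell by 0.21 ± 0.06 SE (adjusted p = 0.0232), a call lost with arrays centred on their medians and without replicate 2 or 4 at 485 mg/kg (adjusted p of at most 0.0746). The ligands did not pass: Vegfa changed by -0.07 ± 0.11 SE (adjusted p = 0.76), Vegfb by 0.25 ± 0.10 SE (adjusted p = 0.0787) and Pgf by -0.05 ± 0.07 SE (adjusted p = 0.711). The co-receptor Nrp1 changed by -0.16 ± 0.10 SE (adjusted p = 0.326) and Flt4, the receptor for VEGF-C, by -0.03 ± 0.09 SE (adjusted p = 0.884).

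Of 7 measured genes of the angiopoietin and Tie list, 0 were called at 485 mg/kg in either direction. The counts of this list and of the Notch and junction lists stand beside 7.22% of all probe sets called lower and 7.81% higher. In lists this short, counts of 0 or 1 lie near those shares. The ligands Angpt1 and Angpt2 lay below the array medians, with changes of 0.09 ± 0.09 SE (adjusted p = 0.557) and 0.03 ± 0.12 SE (adjusted p = 0.931). Ptprb changed by -0.27 ± 0.10 SE (adjusted p = 0.066). Of 12 vascular Notch genes 0 were called, and of 11 junction genes 1 rose, the adherens junction component Ctnna1 (0.26 ± 0.05 SE, adjusted p = 0.000517).

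In the list of endoglin, BMP and TGF-beta signalling, 5 of 21 measured genes fell at 485 mg/kg and 0 rose, beside 7.22% of all probe sets called lower and 7.81% higher. The TGF-beta type I receptor Tgfbr1 fell from 9.27 ± 0.18 to 8.78 ± 0.08 (SD, n = 6, adjusted p = 8.47e-05). At 48.5 mg/kg it was the 1 gene of the 21 called (-0.31 ± 0.09 SE, adjusted p = 0.0465), where 3.39% of all probe sets were called. That call at 48.5 mg/kg was not tested under the alternatives. Bmp2, a ligand that liver endothelium makes, fell by 0.37 ± 0.09 SE (adjusted p = 0.00231), and the signal transducer Smad1 by 0.33 ± 0.09 SE (adjusted p = 0.00672). For these 3 genes all 6 top-dose livers lay below the vehicle range, as for 3.03% of all probe sets. The activin receptor Acvr2a fell by 0.31 ± 0.09 SE (adjusted p = 0.0119), a call lost without vehicle replicate 6 (adjusted p = 0.0509). Acvrl1, the BMP9 receptor that partners endoglin, had means below the array medians and a change of -0.28 ± 0.08 SE (adjusted p = 0.0193), which was lost without vehicle replicate 2 or replicate 4 at 485 mg/kg (adjusted p of at most 0.0665). Bmpr2 changed by -0.10 ± 0.12 SE and Tgfb1 by -0.11 ± 0.09 SE, and neither passed, at adjusted p values of 0.654 and 0.506. Gdf2, Bmp10 and Tgfbr2 were not analysed here.

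Of 18 endothelial transcription factors 3 fell at 485 mg/kg and 0 rose, beside the same 7.22% of all probe sets called lower. They were Lmo2 (-0.34 ± 0.06 SE, adjusted p = 0.000153), Nr2f2, the venous factor COUP-TFII (-0.43 ± 0.09 SE, adjusted p = 0.000443), and Maf (-0.44 ± 0.09 SE, adjusted p = 0.000588), none of them exclusive to endothelium. In the scavenger and hyaluronan list 2 of 9 fell, Mrc1 and the HDL receptor Scarb1 (-0.35 ± 0.07 SE, adjusted p = 0.000702). The hyaluronan receptor Hmmr, known for its part in mitotic spindles, rose by 0.64 ± 0.15 SE (adjusted p = 0.00201) from means below the array medians.

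Markers of other liver cells also moved at 485 mg/kg, and their part in the endothelial results was not tested. The counts that follow stand beside 7.22% of all probe sets called lower and 7.81% called higher at this dose. For the 8 endothelial markers the mean log2 level per liver ran from 7.80 to 7.95 in vehicle and from 7.56 to 7.76 at 485 mg/kg. Kupffer cell and macrophage markers fell in 4 of 9 measured, and their mean level ran from 8.94 to 9.18 in vehicle and from 8.26 to 8.88 at the top dose. Hepatocyte markers fell in 5 of 8, from 14.02 to 14.08 in vehicle against 13.85 to 13.95. Erythroid markers fell in 3 of 3, from 8.03 to 8.54 against 7.24 to 7.83. Stellate cell and fibroblast markers gave 1 rise and 2 falls among 12, from 6.69 to 7.42 against 6.81 to 7.22.

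T and NK cell markers fell in 2 of 10, from 4.90 to 5.29 against 4.72 to 4.96, with 8 of the 10 below the array medians. Cholangiocyte markers gave 1 rise among 5, from 5.48 to 6.09 against 5.54 to 5.78. No member was called of 4 lymphatic endothelial markers (6.13 to 6.42 against 6.10 to 6.25), 4 of smooth muscle (5.30 to 5.60 against 5.25 to 5.83), 4 of platelets (5.49 to 5.81 against 5.53 to 5.79) and 2 of B cells (5.02 to 5.37 against 4.77 to 5.34). RNA quality was read as the 3′ minus 5′ difference of control probe sets. For Gapdh it ran from -0.14 to 0.01 in vehicle and from -0.13 to -0.04 at 485 mg/kg. For beta-actin it was larger, from 1.13 to 1.46 in vehicle and from 1.06 to 1.33 at 485 mg/kg. The ranges of the 2 groups overlapped for both controls.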

How the data were processed

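Liver RNA of 36 rats was measured on 36 arrays, in 6 groups of 6 taken from the labels. The deposited values are log2 expression values made by the authors with RMA and affy, per the submitters' processing notes, with versions not given in the sources used here. The labels do not say whether batches existed. Of 31099 probe sets, 57 controls were left out. The platform table gave 20826 a single gene, 436 several and 9780 none.

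A one-way model over all arrays was fitted with limma 3.58.1 (R 4.3.3), without filter or pseudocount, with each dose against vehicle and 485 against 48.5 mg/kg, two-sided. The study's R/maanova was not used. The probe set with the highest mean represents a gene. Correlations used 100000 permutations within groups. Procedures were tested on simulated data. Alternatives covered a replicate block, normalization, filter, test, weights, arrays used, probe set choice and single arrays left out.

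Named genes are the markers, the ligands and receptors of their pathways, up to 6 called genes per list with the largest change, and the genes most like the markers. Stab1, Vcam1, Icam1 and Ptprb, which were not called, come from the endothelial list. Members and lists were chosen with earlier results of these data known. The number of arrays limits precision.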

Additional observations from a re-analysis of the deposited data

Results flagged for a closer look

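Of 48 groups of 6 livers (8 genes in 6 dose groups), 5 held a liver whose gap to the nearest other exceeded Dixon's 95% critical value, where chance gives about 1 in 20 groups. Kdr in replicate 6 at 4.85 mg/kg was 9.46, below the 5 others at 9.82 to 9.95. Pecam1 in vehicle replicate 1 was 6.27, below the 5 others at 6.69 to 6.81. Lyve1 in vehicle replicate 3 was 10.46, above the 5 others at 10.11 to 10.23. Tek in vehicle replicate 2 was 7.63, below the 5 others at 7.77 to 7.82. Tek in replicate 6 at 485 mg/kg was 8.09, above the 5 others at 7.44 to 7.61.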

How the results depend on the processing

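The count of 3 markers called lower at 485 mg/kg ran from 2 to 4 over single left-out livers and from 2 to 3 over the other alternatives, and Kdr kept its call against vehicle in all of them. With the replicate number as a block the count stayed at 3, and no marker call changed. The numbers were not taken to pair animals: over 90 pairs of same-numbered arrays the correlation of deviations ran from -0.179 to 0.23 with a median of 0.01, 19 exceeded 0.1, and 12 of 36 arrays were closest to their own number. Between 48.5 and 485 mg/kg the count of 2 was 1 by the ordinary test, 0 in a fit of only the 12 arrays compared and 1 with the probe sets of a gene averaged, and it ran from 0 to 2 over left-out livers. In that comparison Kdr lost its call in the 12-array fit (adjusted p = 0.0671), with its probe sets averaged (-0.10, adjusted p = 0.44) and without replicate 2 at 48.5 mg/kg (0.0733) or at 485 mg/kg (0.0547). Tie1 lost it by the ordinary test (0.0501) and in the 12-array fit (0.123).

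With averaged probe sets 2 receptor differences passed: Flt1 minus Kdr at 485 mg/kg (0.21, exact permutation, adjusted p = 0.0325) and Lyve1 minus Stab2 at 0.485 mg/kg (-0.22, adjusted p = 0.0487). Without removal of dose group means, 6 of 28 pairs of markers passed. They were Kdr with Pecam1 (r = 0.63), Stab2 (0.57), Tek (0.60) and Tie1 (0.59), and Stab2 with Tek (0.56) and Tie1 (0.65). These values include the dose effect.

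Of 576 marker changes with a liver left out, 555 kept direction or side of the threshold, 18 lost and 3 gained a call, and of 474 under the other alternatives 469 stayed and 5 were lost. Changes that were not called in either setting turned sign in 44 and 13 cases and are counted as staying. The filter for brighter probe sets leaves out Flt1. The count of 7 other endothelial genes called lower ran from 5 to 8 over left-out livers and from 6 to 7 over the other alternatives, which were chosen after seeing the data. Under the same 17 alternatives the uncalled Ptprb passed in 4, Icam1 in 3, Vcam1, Vegfb and Esam in 2 each and Stab1 and Vwf in 1 each.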
